A study of Mus musculus with 2 samples.

Results

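The genes of cholesterol synthesis, uptake and efflux were examined in epididymal white adipose tissue of mice, in its stromal vascular fraction, which holds all cells of the fat pad but the adipocytes. The 30 members, of 27998 genes in the tables, were taken by symbol. They are 18 synthesis enzymes (Acat2, Hmgcs1, Mvk, Pmvk, Mvd, Idi1, Fdps, Fdft1, Sqle, Lss, Cyp51, Tm7sf2, Msmo1, Nsdhl, Hsd17b7, Ebp, Sc5d and Dhcr7), 4 genes of sterol sensing (Insig1, Insig2, Scap and Srebf2), 3 genes that move incoming cholesterol through the cell (Npc1, Npc2 and Stard4), and 5 genes of the efflux side (Abca1, Abcg1, Soat1, Nr1h2 and Nr1h3). Their UMIs (unique molecular identifiers, each standing for 1 captured transcript) were counted in 4 cell classes: macrophages, adipose progenitors, endothelial cells and lymphoid cells. All mice were male wild-type C57BL/6J animals of 18 weeks, on a normal chow diet (NCD) or on a high-fat diet (HFD) for 12 weeks. The labels do not say how many mice were pooled. Each diet was 1 library of a droplet-based single-cell method, so diet and library cannot be told apart, no test across samples was possible, and every interval below covers counting error only.

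Cells make cholesterol from acetyl units through the mevalonate pathway and, after squalene, through a chain of sterol intermediates. When sterols are low, Scap escorts the transcription factor SREBP2, the product of Srebf2, out of the endoplasmic reticulum to switch on the synthesis enzymes. When sterols are high, the Insig proteins hold it back, while the oxysterol receptors LXRα (Nr1h3) and LXRβ (Nr1h2) switch on the exporters Abca1 and Abcg1. Soat1 stores surplus cholesterol as esters. Macrophages of obese fat take up lipid from dying adipocytes, and progenitors are the fibroblast-like cells from which adipocytes arise.

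The bases before the start site of 6 members are shown because SREBP2 acts at promoters, and because these members stood on both sides of the comparison below. They are from RefSeq on GRCm38.p6, in which 24 of the 30 members matched, and are written in the direction of transcription. Sqle, Fdps, Fdft1, Abcg1, Npc1 and Stard4 had no sequence there and were not searched. Bases that overlap an annotated exon were left out. Capitals mark the sterol regulatory element TCACNCCAC and the CCAAT box, on either strand, so that ATTGG is a CCAAT box on the other strand. Hmgcs1 (chr13:119690101-119690350, plus strand), Sc5d (chr9:42264301-42264550, minus strand) and Srebf2 (chr15:82147019-82147180, plus strand) were lower by more than 1.5-fold in HFD progenitors. Insig1 (chr5:28071162-28071362, plus strand), Soat1 (chr1:156474332-156474578, minus strand) and Abca1 (chr4:53159896-53160145, minus strand) were not.
Hmgcs1: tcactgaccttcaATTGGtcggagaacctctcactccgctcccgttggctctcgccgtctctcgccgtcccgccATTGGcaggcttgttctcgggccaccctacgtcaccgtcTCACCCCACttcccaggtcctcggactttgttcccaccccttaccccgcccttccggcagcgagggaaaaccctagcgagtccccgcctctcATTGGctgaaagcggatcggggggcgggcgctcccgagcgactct
Sc5d: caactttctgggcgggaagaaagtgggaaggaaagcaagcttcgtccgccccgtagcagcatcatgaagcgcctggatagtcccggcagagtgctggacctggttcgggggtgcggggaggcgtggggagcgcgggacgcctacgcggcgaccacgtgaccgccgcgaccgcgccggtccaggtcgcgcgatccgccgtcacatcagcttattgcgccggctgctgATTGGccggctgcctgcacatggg
Srebf2: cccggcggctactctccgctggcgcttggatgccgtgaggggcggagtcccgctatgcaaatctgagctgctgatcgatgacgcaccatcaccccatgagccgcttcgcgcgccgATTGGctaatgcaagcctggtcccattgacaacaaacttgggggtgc
Insig1: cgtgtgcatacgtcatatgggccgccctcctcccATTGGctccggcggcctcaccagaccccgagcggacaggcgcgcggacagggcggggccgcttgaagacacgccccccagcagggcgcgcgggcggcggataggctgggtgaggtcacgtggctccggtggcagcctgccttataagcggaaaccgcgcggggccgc
Soat1: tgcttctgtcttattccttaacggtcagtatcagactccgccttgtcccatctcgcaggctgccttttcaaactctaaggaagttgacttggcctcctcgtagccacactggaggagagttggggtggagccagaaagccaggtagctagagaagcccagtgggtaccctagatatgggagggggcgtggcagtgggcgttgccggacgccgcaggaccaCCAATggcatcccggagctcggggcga
Abca1: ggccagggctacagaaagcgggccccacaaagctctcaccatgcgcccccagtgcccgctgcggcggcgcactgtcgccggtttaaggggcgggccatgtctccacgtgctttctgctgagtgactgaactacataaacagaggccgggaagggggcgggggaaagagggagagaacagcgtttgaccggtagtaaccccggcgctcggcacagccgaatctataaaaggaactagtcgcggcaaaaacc
In the 250 bases before the start, the sterol regulatory element was found in 1 of 24 members, Hmgcs1, where TCACCCCAC begins 137 bases before the start. It was found in 1.22% of 27025 genes. A CCAAT box was found in 19 of 24 members and in 37.5% of genes, and no CCAAT match overlapped the sterol element. The LXR element, searched as 2 copies of AGGTCA with 4 bases between them, was found in 0 of 24 members and in 0.0148% of genes. Only these exact letters were searched, with N as any base, so a variant that differs by 1 base was neither counted nor marked. A member without a match may still hold such a variant, and the 0 for the LXR element cannot show that it is absent. These matches describe letters in this window and say nothing of binding.

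The NCD table held 7365 barcodes and 33825653 UMIs, with a median of 4230 UMIs per barcode. The HFD table held 6840 barcodes and 18623508 UMIs, with a median of 2020. The libraries shared 64 barcode sequences. A class name stands for clusters with at least 3 of the class's markers raised, not for a sorted population, and 895 NCD and 349 HFD cells stayed unnamed. Macrophages and progenitors of the 2 libraries fell largely into different clusters. Cluster 11 held 72.3% of NCD macrophages and cluster 8 held 77.6% of HFD macrophages, while clusters 16 and 10 held 32.3% and 29.9% of NCD progenitors and cluster 4 held 65.3% of HFD progenitors. All endothelial cells of both libraries were in cluster 13. RNA of other cells was more frequent in HFD than in NCD macrophages and progenitors. In macrophages the 15 stromal markers, none of them at 0, summed to 973 CPM (counts per 1000000 UMIs of the class) in the NCD library and to 9334 CPM in the HFD library. In progenitors the 7 macrophage markers, none at 0, summed to 165 and 1390 CPM. Their part in the results below was not tested beyond the values given beside them.

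Summed over the 18 enzymes, transcripts of cholesterol synthesis were lower in HFD progenitors and higher in HFD macrophages. In progenitors (3226 NCD and 3052 HFD cells) the sum was 433 CPM (95% Poisson interval 423 to 444) in the NCD library and 225 CPM (214 to 236) in the HFD library, 1.93-fold lower (1.83 to 2.03). In macrophages (1748 and 2067 cells) it was 205 CPM (194 to 216) and 265 CPM (253 to 278), 1.30-fold higher (1.21 to 1.39). Over all cells of each class, the progenitor sum was thus above the macrophage sum in the NCD library and below it in the HFD library. In HFD clusters of at least 50 cells the 2 classes overlapped, at 186 to 309 CPM in progenitors and 201 to 355 CPM in macrophages. The sum of Abca1, Abcg1 and Soat1, the exporters and the esterifying enzyme, was higher in the HFD library in both classes. It was 70.7 CPM (66.5 to 75.0) and 122 CPM (114 to 130) in progenitors, 1.73-fold higher (1.58 to 1.89). It was 198 CPM (187 to 209) and 294 CPM (281 to 308) in macrophages, 1.49-fold higher (1.39 to 1.60).

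**Figure D1:**
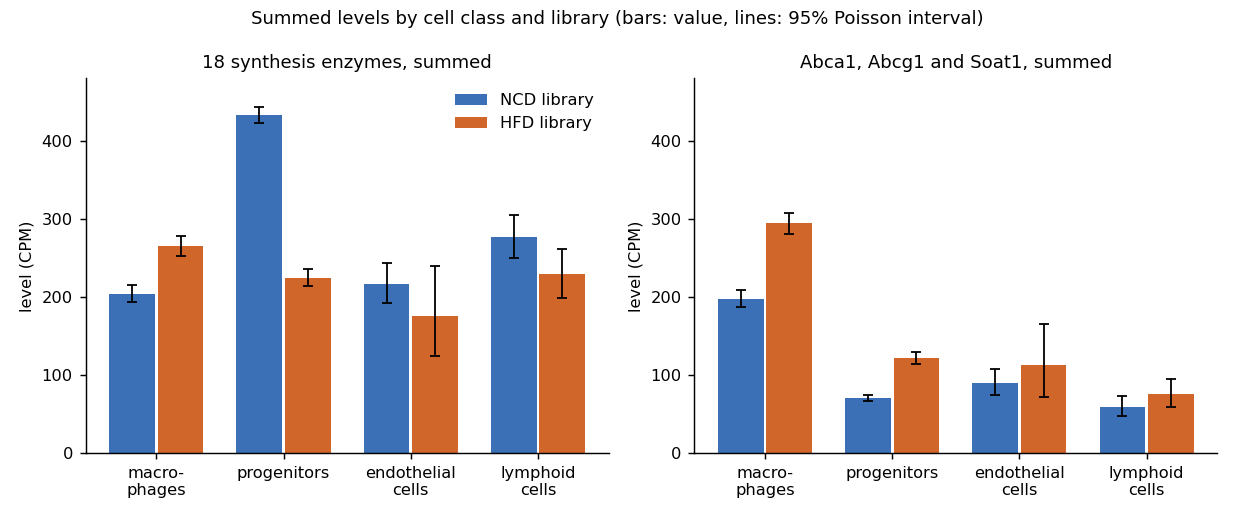
Summed level of the 18 synthesis enzymes (left) and of Abca1, Abcg1 and Soat1 (right) in CPM of each class, with 1 bar per library and 95% Poisson intervals as lines. The synthesis bar of progenitors stood at 433 in the NCD library and at 225 in the HFD library, and the efflux bars of macrophages and progenitors were higher in the HFD library.

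Of the UMIs of both sums together, the share from Abca1, Abcg1 and Soat1 was 14.0% (exact interval 13.3 to 14.8) in NCD progenitors and 35.2% (33.4 to 37.1) in HFD progenitors. In macrophages it was 49.1% (47.2 to 51.1) and 52.6% (50.9 to 54.2). The share was higher in the HFD library in both classes, but the intervals of the macrophage libraries met and those of the progenitor libraries lay far apart.

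In progenitors, 22 of the 30 members passed the filter on low values, a mean of 10 CPM over the libraries and 20 UMIs in all. Of these, 10 were lower by at least 1.5-fold in the HFD library and 2 were higher. Over all 7579 measured genes of this class, 14.5% were lower and 6.72% were higher by that rule of size. Among the measured synthesis enzymes 9 of 12 were lower and 0 were higher, with a median log2 ratio of −1.16 against −0.21 for all measured genes. Under scaling by the median ratio the median of all genes moved to −0.06, 8.28% of genes were lower and 8.87% were higher, and 10 members were lower and 3 higher.

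The lower enzymes came from both the mevalonate stage and the sterol stage of the pathway. Hmgcs1 (ENSMUSG00000093930, chromosome 13, 119690379 to 119708260), which makes HMG-CoA, stood at 39.7 and 16.1 CPM in NCD and HFD progenitors, 2.46-fold lower (2.02 to 3.01). Mevalonate kinase, Mvk, stood at 17.5 and 8.66 CPM. The isomerase Idi1 stood at 26.5 and 7.22 CPM, 3.67-fold lower (2.76 to 4.95). Farnesyl diphosphate synthase, Fdps, whose product also feeds protein prenylation, stood at 69.3 and 29.8 CPM, 2.33-fold lower (2.01 to 2.70).

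The widest difference among the measured enzymes was at the first step that needs oxygen. Sqle (ENSMUSG00000022351, chromosome 15, 59315077 to 59331192), which oxidises squalene, had 380 UMIs in the NCD and 31 UMIs in the HFD library, 24.7 against 4.07 CPM, 6.06-fold lower (4.20 to 9.05). Of the later sterol enzymes, the lanosterol demethylase Cyp51 stood at 17.8 and 8.27 CPM, the methylsterol oxidase Msmo1 at 35.8 and 14.7 CPM, the ketoreductase Hsd17b7 at 16.5 and 8.01 CPM, and the desaturase Sc5d at 25.1 and 8.40 CPM. These 4 were lower by 2.16-fold, 2.44-fold, 2.07-fold and 2.99-fold. Ebp, a sterol isomerase, stood at 78.5 and 63.4 CPM, and it, Pmvk and Nsdhl stayed within 1.5-fold. Of the 6 enzymes below the filter, Fdft1, Lss, Mvd and Tm7sf2 were also lower by more than 1.5-fold, Tm7sf2 with an interval that holds 1, and Acat2 and Dhcr7 were not. With no filter on low values, 22.6% of 16957 genes were lower and 22.2% higher in this class.

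Srebf2 (ENSMUSG00000022463, chromosome 15, 82147181 to 82205379), the activator of these enzymes, was lower with them, at 44.0 CPM (678 UMIs) in NCD and 12.5 CPM (95 UMIs) in HFD progenitors, 3.53-fold lower (2.84 to 4.42). Its escort gene Scap stood at 14.3 and 10.5 CPM and Insig2, a retention factor, at 91.2 and 81.5 CPM, both within 1.5-fold. Insig1 (ENSMUSG00000045294, chromosome 5, 28071363 to 28078662), the other retention factor and itself a target of SREBP2, stood at 48.5 and 118 CPM, 2.43-fold higher (2.20 to 2.68). The deeper HFD cells gave the opposite direction, with values further on.

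Of the genes that carry cholesterol out of lysosomes, Npc1, the membrane transporter, stood at 18.2 and 17.7 CPM in progenitors. Npc2, the soluble carrier that hands cholesterol to it, stood at 471 and 687 CPM, 1.46-fold higher (1.41 to 1.51), just inside the 1.5-fold rule, and past it at 763 CPM under scaling by the median ratio. Stard4, a cytosolic sterol carrier below the filter, had 202 and 25 UMIs, 3.99-fold lower (2.63 to 6.32).

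On the efflux side of progenitors, Soat1 (ENSMUSG00000026600, chromosome 1, 156424525 to 156474331) stood at 25.8 and 51.2 CPM, 1.98-fold higher (1.72 to 2.29), but within 1.5-fold in the deeper cells described further on. Abca1, which loads cholesterol onto lipid-poor apolipoprotein, stood at 44.1 and 57.1 CPM, 1.29-fold higher (1.15 to 1.46). The receptors Nr1h3 (60.3 and 50.8 CPM) and Nr1h2 (48.2 and 42.0 CPM) stayed within 1.5-fold. Abcg1, which exports cholesterol to mature lipoproteins and is named here after its values were seen, had 11 UMIs in NCD and 105 UMIs in HFD progenitors and did not pass the filter.

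**Figure D2:**
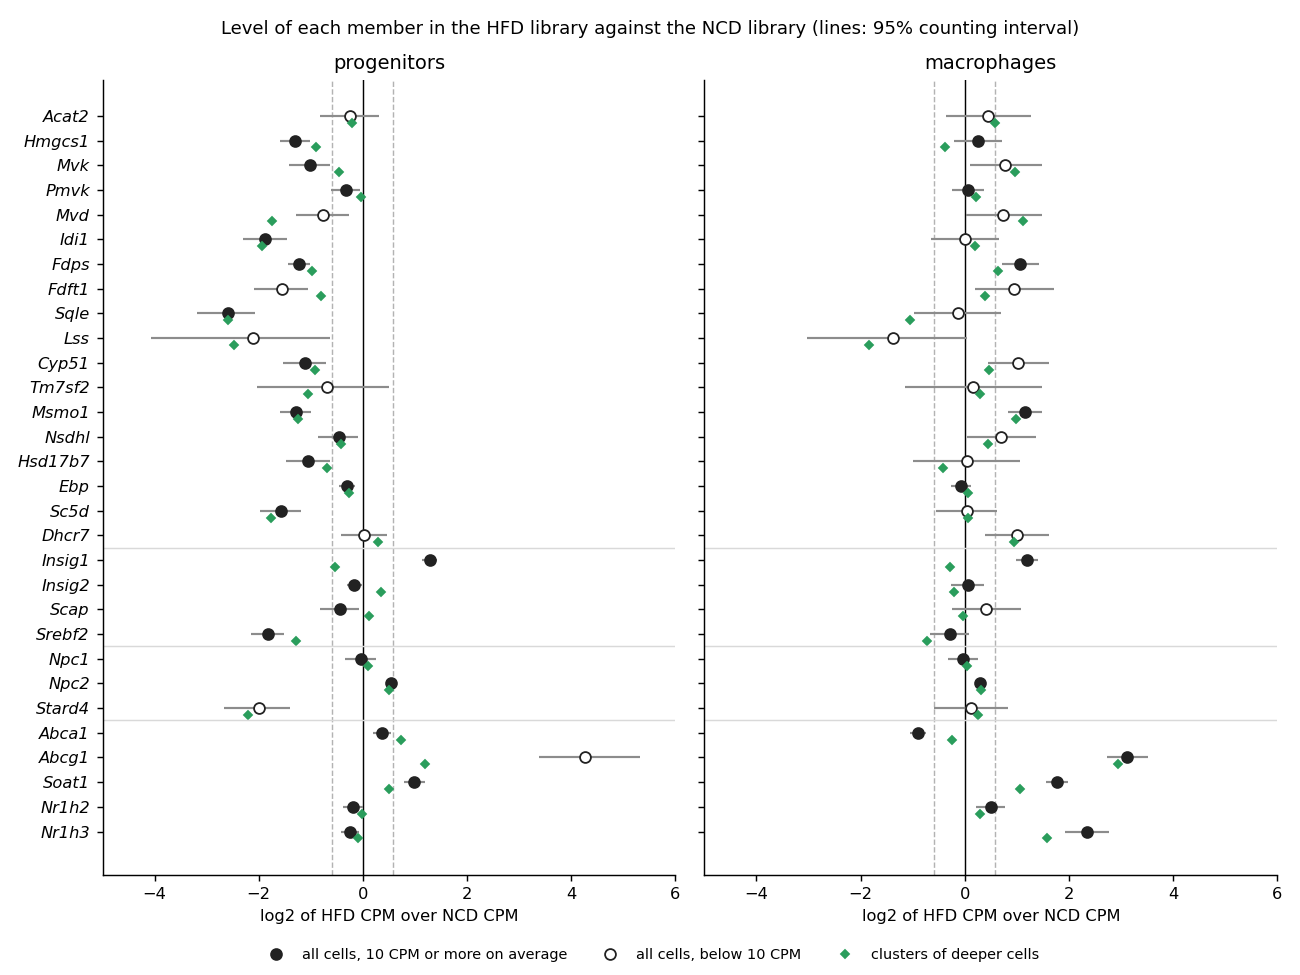
Log2 of the HFD level over the NCD level for each of the 30 members in progenitors (left) and macrophages (right). Circles are all cells of the class with 95% counting intervals, filled where the mean reached 10 CPM, diamonds are clusters of deeper cells, and dashed lines mark 1.5-fold. In progenitors most synthesis enzymes lie left of 0 in both sets of cells, while the Insig1 diamond lies on the other side of 0 from its circle in both classes.

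In macrophages, 15 of the 30 members passed the filter. Of these, 6 were higher and 1 was lower by at least 1.5-fold in the HFD library. Over all 6880 measured genes of this class, 15.2% were higher and 22.8% were lower. With no filter on low values, 12 of 30 members were higher and 2 lower, against 29.4% and 27.2% of 15876 genes.

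The efflux side of macrophages was led by 3 genes. Abcg1 (ENSMUSG00000024030, chromosome 17, 31057675 to 31117988) had 64 UMIs in NCD and 541 UMIs in HFD macrophages, 9.72 against 84.2 CPM, 8.66-fold higher (6.68 to 11.4). Nr1h3 (ENSMUSG00000002108, chromosome 2, 91184061 to 91202834), the gene of LXRα, stood at 8.96 and 45.3 CPM, 5.05-fold higher (3.81 to 6.81). Soat1, the enzyme that makes the cholesterol esters of foam cells, stood at 38.1 and 130 CPM, 3.40-fold higher (2.95 to 3.93).

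Abca1 (ENSMUSG00000015243, chromosome 4, 53030787 to 53159895), the other exporter, lay on the opposite side. Its level was 149.9 CPM among NCD macrophages and 80.6 CPM among HFD macrophages, which is 1.86-fold lower (1.67 to 2.07). It was not past 1.5-fold in clusters of deeper cells (log2 −0.25) or with cells named one by one by marker score (log2 −0.52). Nr1h2, the gene of LXRβ, stood at 28.4 and 39.99 CPM, within 1.5-fold. The summed efflux level in macrophages thus joined 2 higher genes and 1 lower gene, and the median log2 ratio of the 5 measured efflux members was 1.77 where the sum gave 0.57.

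Of the synthesis enzymes, 5 were measured in macrophages, 2 were higher and 0 were lower. Fdps stood at 14.9 and 31.1 CPM, 2.09-fold higher (1.63 to 2.69), and Msmo1 at 17.2 and 38.3 CPM, 2.23-fold higher (1.78 to 2.81). Ebp stood at 76.8 and 73.1 CPM, and Hmgcs1 and Pmvk also stayed within 1.5-fold. The median log2 ratio of these 5 was 0.25, against −0.06 for all measured genes. Of 13 enzymes below the filter, 6 were higher by more than 1.5-fold (Mvk, Mvd, Fdft1, Cyp51, Nsdhl and Dhcr7), 1 was lower (Lss, with 16 and 6 UMIs) and the rest lay between.

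In macrophages Srebf2 stood at 20.3 and 16.6 CPM, 1.22-fold lower with an interval that holds 1 (0.941 to 1.59). In the deeper cells it stood at 20.3 and 12.3 CPM, 1.66-fold lower. Insig1 stood at 41.8 and 95.1 CPM, 2.28-fold higher (1.97 to 2.63), and Insig2 at 25.2 and 26.1 CPM. The Insig1 difference was 1.47-fold (1.23 to 1.76) in clusters with little free RNA, and in the deeper cells the ratio was 0.818 with an interval that holds 1 (0.592 to 1.11). Npc2 stood at 788 and 971 CPM, 1.23-fold higher (1.19 to 1.28), and Npc1 at 32.6 and 31.9 CPM.

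Within the classes, clusters of at least 50 cells were described one by one. They are not replicates of a diet, and most cells of each came from a single library. How many of all genes had cluster ranges that did not overlap was not counted. Ranges that did not overlap are therefore not read as particular to the genes named. The 9 NCD progenitor clusters had synthesis sums between 338 and 583 CPM, and the 7 HFD clusters between 186 and 309 CPM, so these ranges did not overlap. The same held for Srebf2, at 31.3 to 55.7 CPM in NCD and 8.44 to 20.9 CPM in HFD progenitor clusters. Sqle, at 12.6 to 50.1 and 0 to 9.97 CPM, did not overlap either. The efflux sums did overlap, at 55.9 to 91.2 and 77.7 to 144 CPM.

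Macrophage clusters overlapped in synthesis, at 189 to 227 CPM in 4 NCD and 201 to 355 CPM in 8 HFD clusters, and in efflux, at 145 to 245 and 189 to 362 CPM. Soat1 did not overlap, at 26.1 to 43.3 CPM in NCD and 58.5 to 185 CPM in HFD clusters. Abcg1 stood at 7.01 to 9.14 CPM in NCD clusters and at 67.7 to 109 CPM in 7 of 8 HFD clusters. The eighth, cluster 19.2 of 52 cells, was within the NCD range and held stromal markers at 108% of their library level. Abca1 overlapped, at 110 to 195 CPM in NCD and 38.4 to 135 CPM in HFD clusters.

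**Figure D3:**
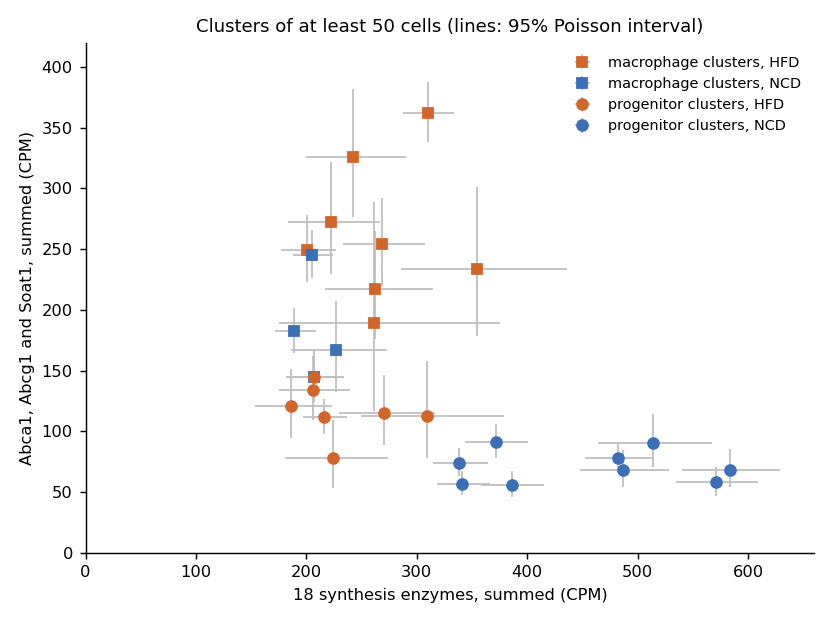
Summed level of the 18 synthesis enzymes (horizontal axis) and of Abca1, Abcg1 and Soat1 (vertical axis) in CPM for each macrophage and progenitor cluster of at least 50 cells, with 95% Poisson intervals. NCD progenitor clusters lie at 338 to 583 on the horizontal axis and HFD progenitor clusters at 186 to 309, next to the macrophage clusters but lower in efflux than most of them.

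Most HFD cells were shallow, and the results were therefore also taken from clusters with a median of at least 2500 UMIs per cell, which left 604 HFD progenitors and 284 HFD macrophages. None of these progenitors were from cluster 4 and none of these macrophages from cluster 8, the largest HFD clusters of each class, so depth and cluster cannot be told apart here. The macrophages were 188 cells of cluster 6, 50 cells of cluster 20.2, which was led by genes of cell division, and a few of clusters 11 and 1. In these progenitors 9 of 13 measured synthesis enzymes were lower and 0 higher, where 7.23% of all measured genes were lower and 6.1% higher, and the synthesis sum had a log2 ratio of −0.79 where all progenitors gave −0.95. Sqle stood at 24.7 and 4.09 CPM, Idi1 at 26.5 and 6.95 CPM, and Srebf2 at 44.0 and 18.0 CPM, 2.45-fold lower. In these macrophages Abcg1 was 7.66-fold higher (5.57 to 10.6), Nr1h3 2.97-fold (1.93 to 4.53), Soat1 2.08-fold (1.65 to 2.60), Msmo1 1.99-fold and Fdps 1.56-fold. These 5 were the higher members of 15 measured and Srebf2 the 1 lower, where 13.1% of all measured genes were higher and 17.1% lower. Abca1 stood at 149.9 and 126 CPM there, a log2 ratio of −0.25, and so was no longer past 1.5-fold.

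Insig1 and, in progenitors, Abcg1 and Soat1 went with the shallow clusters. With the stricter cell filter, of at least 1000 genes per cell, they stayed higher in the HFD library. In progenitors Insig1 was then 1.88-fold higher (1.66 to 2.12) and Soat1 1.84-fold (1.56 to 2.18), and Abcg1 had 11 NCD and 43 HFD UMIs. Macrophage Insig1 was 1.89-fold higher (1.59 to 2.25) under that filter. In the 3 HFD progenitor clusters with medians of 1841 to 1894 UMIs, Insig1 stood at 107 to 177 CPM, and in the 4 deeper ones at 16.6 to 37.7 CPM, near or below the 34.1 to 62.9 CPM of NCD clusters. The 5 HFD macrophage clusters with medians of 1780 to 2208 UMIs had Insig1 at 78.7 to 171 CPM, and the 3 deeper ones at 29.0 to 46.3 CPM. In the deeper cells Insig1 had log2 ratios of −0.53 in progenitors and −0.29 in macrophages, the second with an interval that holds 0. Abcg1 stood at 12.6 to 27.8 CPM in the 3 shallow HFD progenitor clusters, where macrophage markers were at 13.1% to 61.8% of their library level. In the 4 deeper clusters these markers were at 3.73% to 5.52% and Abcg1 at 0 to 3.32 CPM, from 4 UMIs in all. Soat1 was 1.42-fold higher (1.12 to 1.79) in deeper progenitors, and Abca1 1.65-fold higher (1.39 to 1.95).

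**Figure D4:**
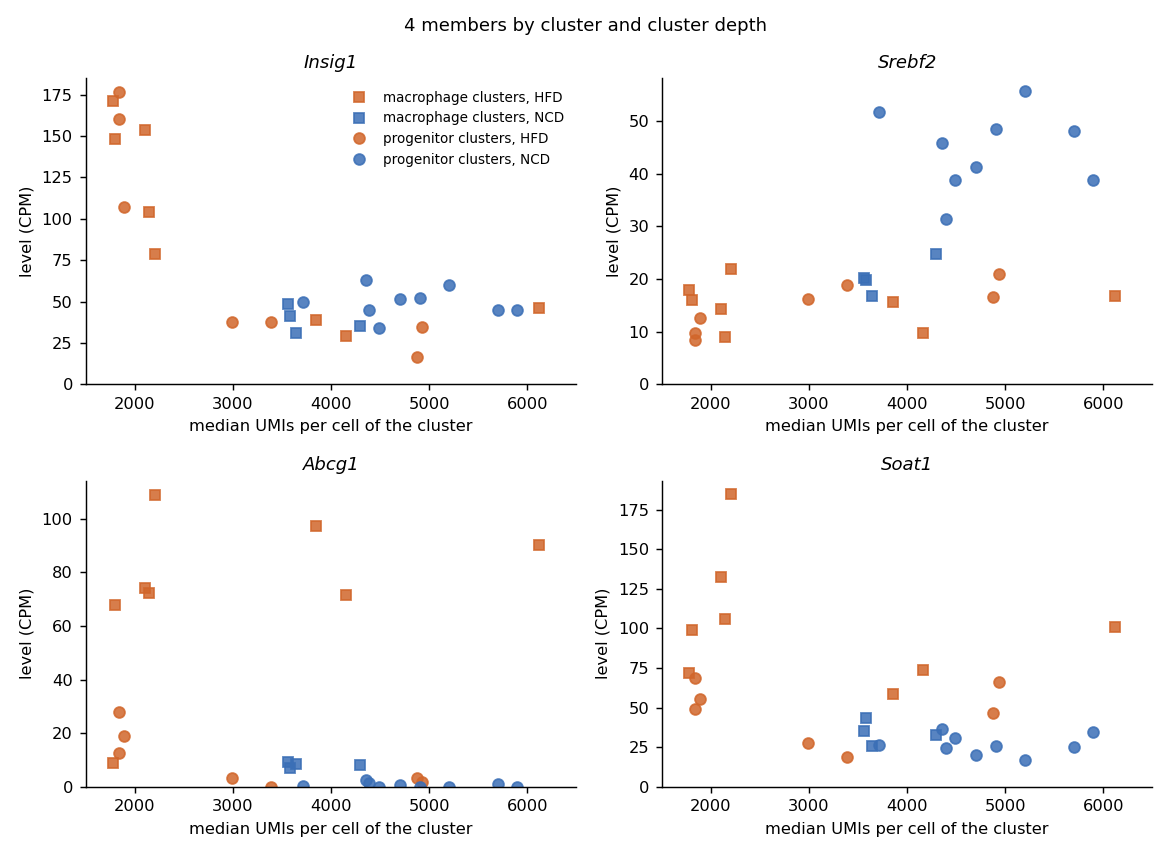
Level of Insig1, Srebf2, Abcg1 and Soat1 in CPM (vertical axes) against the median number of UMIs per cell (horizontal axes) for macrophage clusters (squares) and progenitor clusters (circles) of each library. Insig1 is high in the shallow HFD clusters alone, Srebf2 is lower in each HFD than in each NCD progenitor cluster, and Abcg1 is near 0 in all progenitor clusters but the 3 shallow HFD ones.

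Endothelial cells as named here were few, with 331 NCD and 76 HFD cells. They leave out cluster 13.3, of 15 NCD and 163 HFD cells, which stayed unnamed. It scored highest for lymphatic endothelial markers, while its leading genes held more endothelial ones (Pecam1, Egfl7 and Emcn). Its HFD cells had stromal markers at 98.0% of their library level. Named one by one by marker score, 322 NCD and 268 HFD cells were endothelial. In the named clusters the synthesis sum of 217 and 176 CPM differed by a ratio whose interval holds 1 (log2 −0.31, −0.83 to 0.18). So did the efflux sum, at 90.1 and 113 CPM (log2 0.32, −0.36 to 0.95). Of 15 measured members, 2 were higher and 3 lower, against 13.3% and 21.5% of 7027 genes. Nr1h3 stood at 26.9 and 67.5 CPM (35 and 15 UMIs), 2.51-fold higher (1.27 to 4.71), and was the only one of the 5 whose interval left out 1. Abca1 stood at 53.9 and 85.6 CPM, and the 3 lower members, Fdps, Stard4 and Soat1, had 3, 2 and 2 UMIs in the HFD library. Macrophage markers were at 70.9% and 36.7% of their library level in these cells, and without the cluster that also carried macrophage markers the efflux log2 ratio was 0.94.

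Lymphoid cells (385 NCD and 352 HFD) differed in make-up between the libraries. They held 149 NCD and 223 HFD T cells, 67 and 96 B cells, 64 and 26 natural killer cells, and 27.3% and 1.99% were in cluster 22, which carried the markers of ILC2 (type 2 innate lymphoid cells). The values below are over this mixture, and the part of its make-up in them was not tested. The class had a synthesis sum of 277 and 229 CPM, 1.21-fold lower (1.02 to 1.43), and an efflux sum of 60.0 and 75.7 CPM (log2 0.34, −0.14 to 0.80). Of 22 measured members, 4 were higher and 6 lower, against 11.8% and 19.0% of 7190 genes. The higher ones were Insig1 (18.2 and 51.9 CPM, 2.85-fold), Nr1h3 (3.37 and 17.3 CPM, 5.14-fold), Abca1 (12.8 and 24.9 CPM, 1.94-fold) and Fdps (18.2 and 34.6 CPM, 1.90-fold). Nr1h3 passed the filter on low values only through its HFD level and rested on few UMIs. In T cells alone it had 3 NCD and 13 HFD UMIs, and with the stricter cell filter lymphoid cells had 2 and 6. The lower ones were Sc5d (23.6 and 9.73 CPM), Mvd, Msmo1, Hmgcs1, Scap and Npc1. Of these 6, the intervals of Sc5d and Msmo1 left out 1. Stromal markers were at 11.7% and 33.1% of their library level in lymphoid cells and macrophage markers at 18.6% and 28.1%. When free RNA was subtracted, the efflux log2 ratio turned to −1.30 and that of Abca1 to −0.02, and in clusters with little free RNA the efflux log2 ratio was −0.17.

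Another 30 genes of cholesterol handling were listed beside the members. In macrophages 19 were measured, 6 higher and 7 lower, where 15.2% of all measured genes were higher and 22.8% lower. The higher ones included lysosomal acid lipase, Lipa, which frees cholesterol from taken-up esters, at 113 and 392 CPM, 3.46-fold higher (3.19 to 3.76), and Nceh1, a cholesterol ester hydrolase, at 28.4 and 80.3 CPM. Scarb1, Lrp1 and Cd36, receptors that take up lipoproteins or lipid, and the LXR target Lpcat3 were the other four. The lower ones included Mylip, a ligase that marks lipoprotein receptors for breakdown, at 29.5 and 13.4 CPM, Cyp27a1, which makes an oxysterol, at 47.5 and 19.9 CPM, and the sterol reductase and lamin receptor Lbr, at 49.0 and 14.0 CPM.

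In progenitors 21 of those 30 were measured, 4 higher and 5 lower, where 6.72% of all measured genes were higher and 14.5% lower. Cyp27a1 stood at 76.6 and 25.9 CPM, 2.96-fold lower (2.55 to 3.46). The fatty acid synthesis regulator Srebf1 (18.8 and 9.71 CPM), the lipoprotein receptor Vldlr, Osbp and the protease Mbtps1, which cuts SREBP2, were also lower. The higher ones were Cd36 (27.5 and 270 CPM), Apoe (722 and 3655 CPM), Lipa (33.5 and 76.5 CPM) and Nceh1, and macrophages of the same libraries held Cd36 at 1077 and 1679 CPM and Apoe at 15366 and 12238 CPM.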

How the data were processed

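The 2 tables hold UMI counts per gene and cell barcode, used as the authors deposited them. The tools listed per the submitters' processing notes are Cell Ranger and Seurat, and the build is mm10. Versions and settings are not given in the sources used here. The members and gene lists were chosen with earlier results of these data known.

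Cells were left out below 500 genes, below 1000 UMIs or above 20% mitochondrial UMIs. Scrublet (in scanpy 1.11.5) left out 183 NCD doublets at its own threshold. In the HFD library its own threshold called 0% of barcodes, so the 5% with the highest scores (339) were left out. Kept were 7161 NCD and 6447 HFD cells. Both libraries were clustered together without integration (2000 variable genes, 30 components, 15 neighbours, Leiden), in 24 clusters that were split once more into 74. A cluster took the class whose markers led it, with at least 3 of them raised 1.5-fold. It stayed unnamed where its 10 leading genes held more markers of another class. The erythroid and platelet lists named no cluster, since haemoglobin transcripts were spread over all cells and Pf4 is also made by macrophages. This exception was set after the clusters were seen. Class names follow these markers and may differ from the authors' own.

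UMIs were summed per class and library and given as CPM, per 1000000 UMIs of that sum. Sums have exact Poisson, ratios exact conditional binomial and shares exact Clopper-Pearson 95% intervals, which cover counting error only. A member was measured with a mean of at least 10 CPM and at least 20 UMIs in both libraries together, and was called higher or lower at 1.5-fold, a rule of size and not a test. Named were the measured members past it and the 2 with the highest mean in each role. Other genes were named after their values were seen. The amount of free RNA, which comes from other cells of the suspension, was taken as the median level of 15 stromal or 7 macrophage markers in a class, in percent of their level in the whole library.

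The interval code was checked on simulated counts. In these, counting error alone put 30.1% of unchanged genes past 1.5-fold in endothelial cells and 12.5% in lymphoid cells. It did so for 0.317% in macrophages and 0.0536% in progenitors. Alternatives were another scaling, a stricter cell filter, doublets kept, cells named one by one, cells weighted equally, free RNA subtracted or limited, no filter on low values, and 2-fold. Added after seeing the data were clusters of deeper cells, unnamed clusters given a class, cycling clusters left out, an endothelial cluster with macrophage markers left out, and the scalings and filters applied to the member counts. Gene positions are from GENCODE vM21 on GRCm38, and promoters from RefSeq on GRCm38.p6. Intervals were computed with scipy 1.17.1 under Python 3.11.15.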

Additional observations from a re-analysis of the deposited data

Results flagged for a closer look

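Some members and sums differed between the libraries in opposite directions in 2 cell classes. With 1 library per diet the difference between classes was not tested. It is given as the log2 ratio of HFD over NCD in the first class minus that in the second. For the sum of the synthesis enzymes it was 1.32 between macrophages (0.38) and progenitors (−0.95), and 0.65 between macrophages and lymphoid cells (−0.27).

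Fdps was higher in HFD macrophages (1.06) and lymphoid cells (0.93) and lower in HFD progenitors (−1.22). The difference was 2.28 between macrophages and progenitors and −2.15 between progenitors and lymphoid cells. Msmo1 was higher in macrophages (1.16) and lower in progenitors (−1.28) and lymphoid cells (−1.12), which gave 2.44 between macrophages and progenitors and 2.28 between macrophages and lymphoid cells. Abca1 was lower in macrophages (−0.89) and higher in lymphoid cells (0.96), a difference of −1.85, and in lymphoid cells it rested on 19 NCD and 23 HFD UMIs.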

How the results depend on the processing

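No paired analysis was possible because there is 1 library per diet. With no replicates, a library and its depth and free RNA cannot be told apart from the diet. The synthesis sum was lower in HFD progenitors and higher in HFD macrophages under every setting run, and the efflux sum was higher in both. For single members past 1.5-fold, 297 values lay within the 95% counting interval of the first value, 30 lay outside it and 6 turned in direction. Values below are log2 ratios unless they are counts of members, and the cause of a move was not tested where no value above shows it.

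The macrophage synthesis sum was 0.49 in clusters with little free RNA, and the median of its measured members was 0.25. The macrophage efflux sum was 0.41 with cells weighted equally, 0.75 with free RNA subtracted and 0.74 in clusters with little of it, and its median member was 1.77. With no filter on low values 12 macrophage members were higher and 2 lower. The count of lower members was 0 at 2-fold (10.8% of all measured genes), 0 with cells named by marker score (20.2%), where Abca1 was at −0.52, and 2 with cells weighted equally (26.7%).

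The progenitor synthesis sum was −0.79 with scaling by the median ratio, −0.85 with the stricter cell filter, −0.84 with cells named by marker score and −0.79 in clusters of deeper cells, and its median member was −1.16. The progenitor efflux sum was 0.94 with the median ratio, 0.54 with free RNA subtracted and 0.65 in deeper cells. The count of higher progenitor members was 1 at 2-fold (4.09%) and 1 in deeper cells (6.1%). Insig1 turned in deeper cells, to −0.29 in macrophages and −0.53 in progenitors.

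Counts of endothelial members were 1 higher and 1 lower at 2-fold (4.07% and 10.1% of all measured genes), and 6 and 8 of 30 with no filter (19.1% and 38.5%). With cells named by marker score 4 were higher and Soat1 turned to 1.199, and with doublets kept 5 were lower (12.2% and 21.7% of genes). The lymphoid efflux sum was 1.14 with cells named by marker score, −1.30 with free RNA subtracted and −0.17 in clusters with little free RNA. Lymphoid counts were 2 higher and 3 lower at 2-fold (5.79% and 8.22% of genes), 12 lower of 30 with no filter (29.3%), 3 lower by marker score (19.6%), and 2 higher and 9 lower with free RNA subtracted (11.9% and 26.3%). In lymphoid cells Npc1 turned to 0.0018 with the stricter cell filter, Abca1 to −0.024 with free RNA subtracted and Scap to 0.037 in clusters with little of it. Clusters of deeper cells left 45 HFD endothelial cells and 6 HFD lymphoid cells, and the stricter filter 48 HFD endothelial cells, too few for a value.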

Other observations

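Dendritic cells, which present antigen to T cells, showed the same order of sums as progenitors. In 366 NCD and 244 HFD cells the synthesis sum was 282 CPM (95% Poisson interval 262 to 304) and 224 CPM (191 to 260). The sum of Abca1, Abcg1 and Soat1 was 47.9 CPM (39.7 to 57.3) and 88.4 CPM (68.6 to 112). Clusters named mesothelial, for the cells that line the fat pad, held 57 NCD and 54 HFD cells. Their synthesis sum was 376 and 196 CPM, 1.92-fold lower (1.28 to 2.99). Of these cells, 7 NCD and 51 HFD cells were in cluster 0.2, led by Crisp1, Akr1b7, Spink8 and Defb42. None of these is a mesothelial marker used here, though the markers Krt19 and Upk3b were also among its leading genes. The class name is therefore less certain for cluster 0.2. Clusters 0.0 and 0.1, which held the other 36 and 14 NCD cells, were not led by Crisp1, Akr1b7, Spink8 or Defb42. Stromal markers were at 90.3% of their library level in the HFD cells of cluster 0.2. The values thus compare largely different clusters, and library and cluster cannot be told apart. The efflux share of the UMIs in this class was 7.88% (4.26 to 13.1) in the NCD and 30% (16.6 to 46.5) in the HFD library, from 13 and 12 efflux UMIs. The 7 macrophage markers summed to 126 and 1511 CPM in this class, and their part in the share was not tested. In dendritic cells the stromal markers reached 2.44% (NCD) and 31.5% (HFD) of the level over the whole library. The macrophage markers reached 11.1% and 19.4% there, and their part in the efflux sum was not tested. Within the lymphoid cells, the synthesis log2 ratio was −0.28 in T cells, −0.28 in B cells and −0.03 in natural killer cells, each with an interval that holds 0.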
